A study of Mus musculus with 5 samples.

Results

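The insulin-like growth factor (IGF) family was followed in sorted papillary cells of the mouse kidney, taken from the tip of the inner medulla. Its 10 genes, of 20053 named on the array, were the ligands Igf1 and Igf2, the receptor Igf1r and the binding proteins Igfbp1, Igfbp2, Igfbp3, Igfbp4, Igfbp5, Igfbp6 and Igfbp7. They were chosen by name, and 22 of the 41174 non-control probes of the array belonged to them. The array's own gene name identified 17 of these probes, and the platform annotation alone identified the other 5, which carry clone or sequence names on the array and are assigned there to Igf1, Igf1r and Igfbp3. All cells came from H2B-GFP mice, which had been given doxycycline as embryos and were then left to an age of 2 to 3 months. The titles of all 5 samples call the tissue control kidney papilla. The sources used here do not name the promoter that drives the label. A fusion of histone and GFP is diluted by division, so the GFP+ cells are those that kept the label, and the GFP- cells of the same papillae are their controls. Live cells were sorted after collagenase digestion, their RNA was amplified by global PCR, and each of 5 biological replicates was hybridised to 1 two-colour array, on which the labels put GFP+ cells in Cy5 and GFP- cells in Cy3.

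IGF1 and IGF2 are secreted peptides that signal through the tyrosine kinase IGF1R to the phosphatidylinositol 3-kinase and AKT pathway and to the RAS pathway. The binding proteins IGFBP1 to IGFBP6 hold the peptides with high affinity outside the cell, and proteases of the pappalysin family release them from some of these. IGFBP7 binds them with low affinity and is a protein of vascular and other extracellular matrix. In rat kidney, IGF1 is made by cells of the medullary collecting duct.

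The second deposited intensity is taken as GFP+ and the first as GFP-. No source states which dye each column holds, so the direction is only likely. It follows the Cy5-over-Cy3 convention of Agilent and the labelled dyes, and with the other assignment every sign below would be the reverse. Between 57.7% and 75.3% of non-control probes per array were above background in the GFP- channel and between 59.4% and 72.5% in the GFP+ channel, where above background means an intensity of at least 3 times that of the negative control probe. Of the papillary markers, 7 of 8 tested genes of collecting duct principal cells and 6 of 6 of the thin limb were above background in both channels on all 5 arrays. Replicate 1 stood apart: across 29814 tested probes its log2 ratios had Pearson correlations of -0.192 to -0.0653 with those of the other arrays, against 0.0619 to 0.233 among replicates 2 to 5. Probes are not independent replicates, and these correlations are a description. In sorted bulk cells, fewer cells of a type and less RNA per cell cannot be told apart.

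No IGF family probe differed between the populations by the test. Of its 22 probes, 15 reached the background limit in at least 1 channel on at least 3 arrays and were tested, and these stood for 9 genes, all but Igf2. Limma called 0 of the 15 at an adjusted p of 0.05, with 1 at an unadjusted p under 0.05, the Igfbp5 probe A_51_P204153. That probe met the limit through GFP+ cells. With both channels required above background on all 5 arrays, 7 family probes were tested. Of these, 0 had an unadjusted p under 0.05 in limma, against 861 of all 16287 probes so tested. Over all 29814 tested probes limma called 0.0% in either direction, and 6.01% had an unadjusted p under 0.05, 4.43% with GFP+ higher and 1.58% with GFP+ lower. The lowest adjusted p was 0.813 among the family's probes and 0.699 over all probes. The mean was at least 2-fold from equality for 4 of the 15, against 30.8% of all tested probes. The ratio had one sign on all 5 arrays for 3 of the 15 family probes, against 7.89% of all tested probes. After each array was centred on its median ratio, this count was 2 of 15, against 7.63%. The intensity ranges of the populations were separate for 0 of the 15 family probes, against 0.627% of all tested probes. Over the 15 probes the median of the mean log2 ratios was 0.42, beside 0.13 for all tested probes.

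**Figure D1:**
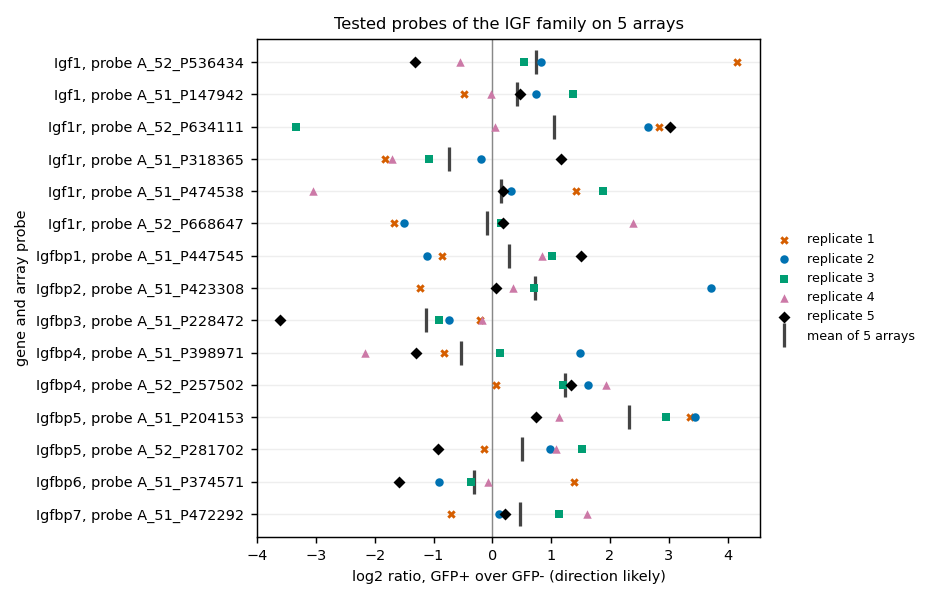
Log2 ratio of GFP+ over GFP- cells for the 15 tested probes of the IGF family, 1 point per array and a bar for the mean of 5 arrays. One Igfbp5 probe and one Igfbp4 probe lie right of 0 on all 5 arrays and one Igfbp3 probe lies left of 0 on all 5 before centring, while the probes of Igf1 and Igf1r scatter to both sides.

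The ligand Igf1 was detected in both populations. Probe A_52_P536434 had intensities of 1779, 1674, 2809.97, 1112 and 4968 in GFP- cells and of 31960, 2984, 4101, 764 and 1993 in GFP+ cells of replicates 1 to 5. The GFP+ value of replicate 1 was above all others, and the ranges of the populations overlapped. The log2 ratios were 4.17, 0.83, 0.55, -0.54 and -1.32, with GFP+ higher on replicates 1 to 3 and lower on 4 and 5. Their mean was 0.74 ± 2.10 (SD, n = 5; limma adjusted p 0.869), and without replicate 1 it was -0.12 ± 0.99 (SD, n = 4). Another Igf1 probe, A_51_P147942, lay between 68.3 and 128 in GFP- cells and between 87.4 and 330.04 in GFP+ cells, with a mean log2 ratio of 0.42 ± 0.71 (SD, n = 5; limma adjusted p 0.885). In GFP- cells this probe was above background on 3 of 5 arrays. It was not on replicates 2 and 3, which had its highest log2 ratios, 0.75 and 1.37. A_52_P536434 and A_51_P147942 had the same sign on 3 of 5 arrays. Of the other Igf1 probes, A_52_P306327 was above background on 2 arrays in GFP- cells and on none in GFP+ cells, with 963 against 23.4 on replicate 5. The fourth, A_52_P351116, was above background on replicate 1 alone, with 261 in GFP- and 28.0 in GFP+ cells, and neither was tested.

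Igf2, the ligand best known from fetal growth, was at background. Probe A_51_P516826 lay at 0.825 to 2.86 times the negative control across all channels and was above background on 0 arrays. Probe A_51_P516833 passed the limit on 1 array, in GFP- cells of replicate 1, with an intensity of 84.1. In the authors' deposited table the single-array p-value of A_51_P516826 was under 0.01 on 4 of 5 arrays, with GFP+ lower on replicate 1 and higher on replicates 2, 4 and 5. With both channels below the background limit, no fold is given for this probe.

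Igf1r, the signalling receptor, was detected, but its probes did not move together. Of 5 Igf1r probes 4 were tested. Probe A_51_P318365 was above background in both channels on all 5 arrays. Its log2 ratios were -1.83, -0.20, -1.08, -1.71 and 1.16 on replicates 1 to 5, with GFP+ lower on 4 arrays and higher on replicate 5, and a mean of -0.73 ± 1.24 (SD, n = 5; limma adjusted p 0.838). It was -1.20 without replicate 5 and -0.46 without replicate 1. Probe A_52_P634111, from the clone D930020L01, ran the other way on several arrays. Its GFP- intensities were 4104, 43.7, 485, 48426 and 1194 and its GFP+ intensities 29363, 272, 47.8, 50158 and 9711. In both channels it ranged from background on 1 array to its highest value on replicate 4. Its mean log2 ratio was 1.04 ± 2.73 (SD, n = 5; limma adjusted p 0.845), from -3.34 on replicate 3 to 3.02 on replicate 5, and it was 2.14 without replicate 3 and 0.55 without replicate 5.

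The remaining Igf1r probes add no common direction. Probe A_51_P474538, from the clone A330103N21Rik, had a mean of 0.15 ± 1.93 and A_52_P668647 had -0.09 ± 1.64 (SD, n = 5). A_51_P474538 was above background on 3 arrays in GFP- and 4 in GFP+ cells, and A_52_P668647 on 4 in each. The mean of the former turned below 0 under each of 3 other scalings and with dim intensities raised to the background limit, and that of the latter turned above 0 without replicate 1 or 2. Probe A_52_P738892 was not tested, being above background on 2 arrays in GFP- and 1 array in GFP+ cells. Between the 4 tested Igf1r probes, any pair had the same sign on 2 or 3 of 5 arrays.

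Igfbp5, which binds IGFs and sits in extracellular matrix, had the highest mean ratio of the 15 tested probes. Probe A_51_P204153 had intensities of 275, 48.4, 59.0, 51.3 and 310.2 in GFP- cells and of 2813, 525, 454, 112 and 521 in GFP+ cells of replicates 1 to 5. GFP+ was higher on every array, by 10.2-, 10.9-, 7.69-, 2.19- and 1.68-fold, although the ranges over arrays overlapped. The mean log2 ratio was 2.32 ± 1.28 (SD, n = 5), with a 95% interval of 0.80 to 3.85 by limma, an unadjusted p of 0.00821 and 0.813 after adjustment. A ratio above 0 on all 5 arrays was found for 4.96% of all tested probes. In GFP- cells this probe was above background on replicates 1 and 5 alone, 2 of 5 arrays, against 5 of 5 in GFP+ cells. Without its GFP+ values it would not have met the limit for testing. With dim intensities raised to the background limit, the folds were 10.2, 6.26, 3.08, 1.42 and 1.68 and the mean log2 ratio was 1.78 ± 1.22 (SD, n = 5). The mean stayed between 2.05 and 2.72 when any 1 replicate was left out.

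The second Igfbp5 probe had ratios on both sides of 0. A_52_P281702 lay between 37.0 and 155 in GFP- cells and between 78.0 and 157 in GFP+ cells, which is at or near background. Its log2 ratios were -0.15, 0.98, 1.52, 1.08 and -0.93, with GFP+ higher on replicates 2 to 4 and lower on 1 and 5. The mean was 0.50 ± 1.01 (SD, n = 5; limma adjusted p 0.875), and with dim intensities raised to the background limit it was -0.21. The mean of both probes gave Igfbp5 a log2 ratio of 1.41, with a limma adjusted p of 0.806 over genes.

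Igfbp4, the binding protein that the protease PAPPA cleaves, had 2 tested probes of opposite mean. Probe A_52_P257502 had 211, 124, 111, 43.2 and 109.9 in GFP- cells and 219, 382, 255, 165 and 277 in GFP+ cells. GFP+ was higher on all 5 arrays, by 1.04-fold on replicate 1 and by 2.29- to 3.83-fold on replicates 2 to 5. Its mean log2 ratio was 1.23 ± 0.72 (SD, n = 5; unadjusted p 0.0608, limma adjusted p 0.813), and it was 1.52 ± 0.33 without replicate 1 (SD, n = 4; limma adjusted p 0.269). With an offset of 50 and loess it was 0.72. In GFP- cells this probe was above background on 3 of 5 arrays, not on replicates 3 and 4, against 5 of 5 in GFP+ cells. With dim intensities raised to the background limit, its folds were 1.04, 3.09, 1.73, 2.09 and 2.52. The mean log2 ratio was then 0.97 ± 0.60 (SD, n = 5). The other probe, A_51_P398971, had 629, 292, 645, 3387 and 2192 in GFP- cells and 355, 824, 708, 757 and 894 in GFP+ cells. Its mean was -0.53 ± 1.40 (SD, n = 5; limma adjusted p 0.880), with GFP+ higher on replicates 2 and 3 and lower on the other three. The mean of both probes was 0.35, and they had the same sign on 2 of 5 arrays.

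Igfbp3, the main IGF carrier of blood, was lower in GFP+ cells on all 5 arrays by its only tested probe, though not after centring. A_51_P228472 had 337, 548, 865, 302 and 4443 in GFP- cells and 291, 330, 461, 266 and 362 in GFP+ cells. The GFP+ values stayed within a narrow range, while the GFP- value of replicate 5 was far above the others. GFP- exceeded GFP+ by 1.16-, 1.66-, 1.88- and 1.14-fold on replicates 1 to 4 and by 12.3-fold on replicate 5. The mean log2 ratio was -1.13 ± 1.43 (SD, n = 5; unadjusted p 0.140, limma adjusted p 0.813), and without replicate 5 it was -0.51. A ratio below 0 on all 5 arrays was found for 2.92% of all tested probes. The one sign ends with centring, which puts replicate 1 at 0.043. The other Igfbp3 probes, A_52_P253179 and A_52_P851352, were above background on 0 arrays in either channel.

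Igfbp7 and Igfbp2 were above background in both populations on all 5 arrays. Igfbp7, the low-affinity member, had by probe A_51_P472292 intensities of 261998, 291314, 146154, 86866 and 13143 in GFP- cells and of 160046, 314993, 319001, 265916 and 15289 in GFP+ cells. Both channels of replicate 5 were well below those of the other arrays. The log2 ratios were -0.71, 0.11, 1.13, 1.61 and 0.22, with GFP+ lower on replicate 1 and higher on the other four, and the mean was 0.47 ± 0.91 (SD, n = 5; limma adjusted p 0.877). The mean was 0.77 ± 0.73 without replicate 1 (SD, n = 4; limma adjusted p 0.499) and 0.19 without replicate 4. Its 95% interval over 5 arrays ran from -0.90 to 1.84.

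Igfbp2, a binding protein of fetal and several adult tissues, had by probe A_51_P423308 intensities of 12142, 5687, 31662, 74529 and 5888 in GFP- cells and of 5163, 75160.04, 51786, 94521 and 6132 in GFP+ cells. GFP+ was 13.2-fold higher on replicate 2, lower on replicate 1 with a log2 ratio of -1.23, and higher by 1.64-, 1.27- and 1.04-fold on replicates 3 to 5. The mean log2 ratio was 0.72 ± 1.83 (SD, n = 5; limma adjusted p 0.860). It rests on replicate 2, without which it was -0.031. Igfbp2 and Igfbp5 are neighbours in the RefSeq annotation of GRCm38.p6, with 0 annotated genes between them, and so are Igfbp1 and Igfbp3. The ratios of Igfbp2 and of the Igfbp5 probe A_51_P204153 had the same sign on replicates 2 to 5 and opposite signs on replicate 1. After centring, these probes had the same sign on replicates 2 and 3 alone. The other Igfbp5 probe, A_52_P281702, had the sign of Igfbp2 on replicates 1 to 4 before centring, and the opposite sign on replicate 5. The ratios of Igfbp1 and Igfbp3 had the same sign on replicates 1 and 2 and opposite signs on replicates 3 to 5. After centring, they had the same sign on replicate 2 alone.

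**Figure D2:**
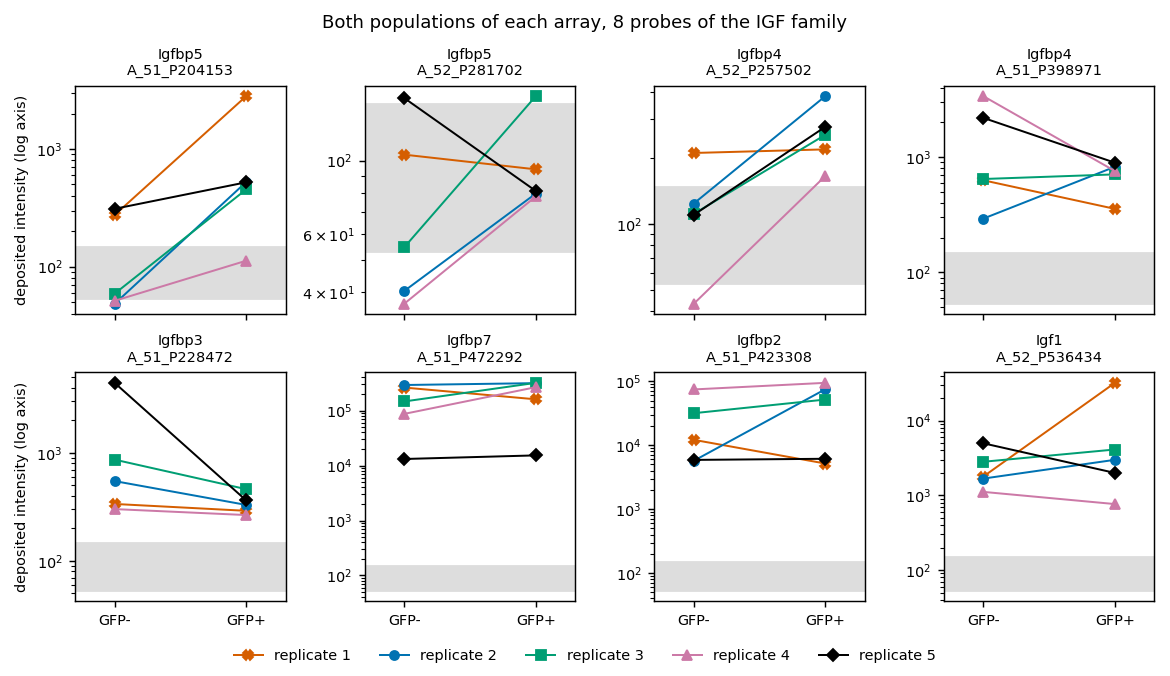
Deposited intensities of GFP- and GFP+ cells for 8 probes of the IGF family, each on a log axis with a range of its own. Each line joins the channels of 1 array, and the grey band spans the lowest to highest background limit of the arrays and channels. The lines of Igfbp5 probe A_51_P204153 and Igfbp4 probe A_52_P257502 rise to the right on all 5 arrays and those of Igfbp3 fall, while the lines of the other probes cross.

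Igfbp1, which insulin represses in liver, had by probe A_51_P447545 log2 ratios of -0.85, -1.10, 1.02, 0.84 and 1.51 on replicates 1 to 5. Its intensities ran from 78.9 to 379 in GFP- and from 96.6 to 768 in GFP+ cells. The mean was 0.28 ± 1.18 (SD, n = 5; limma adjusted p 0.932), and -0.024 without replicate 5. Igfbp6, which prefers IGF2 over IGF1, had by probe A_51_P374571 log2 ratios of 1.40, -0.90, -0.36, -0.08 and -1.58. GFP+ was higher on replicate 1 and lower on the other four. The mean was -0.30 ± 1.11 (SD, n = 5; limma adjusted p 0.925), -0.73 ± 0.66 without replicate 1 (SD, n = 4; limma adjusted p 0.513), and 0.015 without replicate 5.

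Probes of one gene often differed in sign, in the family as on the whole array. Igf1, Igf1r, Igfbp4 and Igfbp5 had several tested probes, which made 9 pairs of probes. On the 5 arrays these pairs gave 45 comparisons, and the signs were equal in 22 of them, or 48.9%. Igf1r alone made 30 of the 45, with 14 equal signs. Over all pairs of tested probes that share a gene symbol on the array, 54.1% of the comparisons had equal signs. Within a single array, large ratios were common: between 7 and 9 of the 15 tested family probes differed at least 2-fold on each array, as did 48.2% to 59.7% of all tested probes. In the authors' deposited table the p-value of the single array was under 0.01 for 40 of the 75 values of the tested family probes, 53.3%, and for 56.3% of the values of all tested probes. Across arrays the family's median SD of the log2 ratio was 1.28, beside 1.70 for all tested probes.

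Other genes of the IGF pathway gave no call either. A list of 36 genes of hormone input, proteases, adaptors and downstream kinases had 33 tested genes, each by its brightest tested probe. Limma called 0 of the 33, 0 higher and 0 lower, where 0.0% of 17425 genes were called. An unadjusted p under 0.05 was found for 4 of the 33, against 5.87% of genes, and one sign on all 5 arrays also for 4 of the 33, against 8.02%. After centring, 2 of the 33 had one sign, against 7.63% of all tested probes. The mean was above 0 for 18 and below 0 for 15, and the list's median log2 ratio was 0.03, beside 0.09 for all genes. The genes of lowest unadjusted p, all with a mean above 0 and an adjusted p of 0.813 in limma, were Ghr, Grb2, Insr and Tsc1.

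Ghr, the growth hormone receptor that drives Igf1 transcription in liver, had by probe A_51_P499854 intensities of 577, 286, 834, 349 and 431 in GFP- cells and of 18197, 1844, 3038, 1927 and 1422 in GFP+ cells. Every GFP+ value was above every GFP- value. The ranges were separate for 1 of the 33 pathway genes, against 0.627% of all tested probes. Ghr is named here for its low p, so this is a description. The mean log2 ratio was 2.74 ± 1.31 (SD, n = 5; unadjusted p 0.00358). Without replicate 1 it was 2.18 ± 0.46 (SD, n = 4; limma adjusted p 0.235). The other 3 tested Ghr probes had means of 0.69, 0.51 and 1.39 and were above 0 on 3 of 5 arrays each, so the separation held for 1 of 4 probes. Insr, the insulin receptor, had log2 ratios of 2.53, 1.18, 1.05, 0.35 and 1.84 and a mean of 1.39 ± 0.83 (SD, n = 5; unadjusted p 0.0434). A second Insr probe, A_52_P494514, had a mean of 1.22 and was above 0 on 2 of 5 arrays. It had -0.073 and -0.030 on replicates 2 and 3, where both channels were near background. On replicate 4 it had -1.38, with intensities of 79074 in GFP- and 30420 in GFP+ cells. Grb2, an adaptor from receptor tyrosine kinases to RAS, had 1.70 ± 1.27 (SD, n = 5; unadjusted p 0.0329), from 0.03 on replicate 1 to 3.60 on replicate 2, and its second probe had a mean of 0.43 and was above 0 on 3 of 5 arrays. Tsc1, part of the complex that restrains mTOR complex 1, had 2.06 ± 2.18 (SD, n = 5; unadjusted p 0.0467), above 0 on 3 of 5 arrays. In GFP- cells this probe was above background on 3 of 5 arrays. It was not on replicates 2 and 5, which had log2 ratios of 3.31 and 4.12. The other Tsc1 probes had means of 0.92, above 0 on all 5 arrays, and of 2.03, above 0 on 3 of 5. The former was above background on 3 arrays in GFP- and 5 in GFP+ cells. The latter was so on 2 and 3, and had 7.11 on replicate 1.

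**Figure D3:**
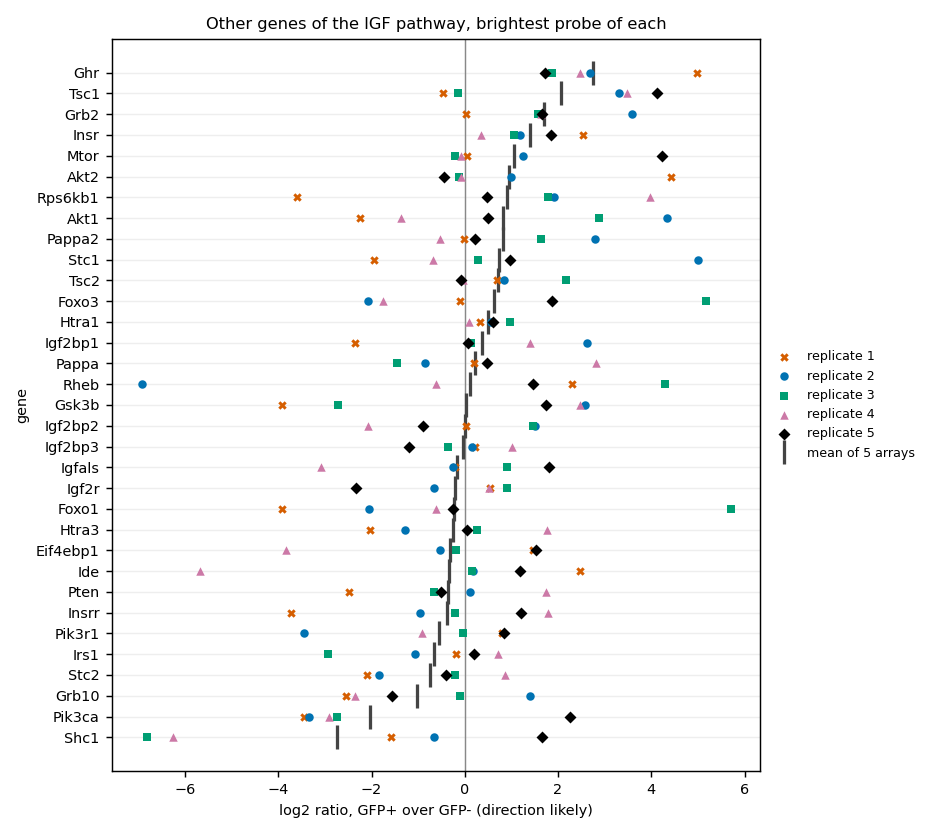
Log2 ratio of GFP+ over GFP- cells for 33 other genes of the IGF pathway, 1 point per array for the brightest tested probe and a bar for the mean. Ghr, Grb2, Insr and Htra1 lie right of 0 on all 5 arrays before centring, and most other genes have points on both sides.

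Of the proteases that cleave binding proteins, Pappa had a mean log2 ratio of 0.23 ± 1.64 and Pappa2 0.82 ± 1.37 (SD, n = 5). The stanniocalcins, which inhibit these proteases, had 0.72 ± 2.63 for Stc1 and -0.74 ± 1.23 for Stc2 (SD, n = 5). Of 3 tested Stc1 probes, 1 had a mean above 0, the probe given. Its log2 ratios ran from -1.94 on replicate 1 to 5.00 on replicate 2. Htra1, a secreted serine protease that cleaves Igfbp5, had 0.51 ± 0.33 (SD, n = 5; unadjusted p 0.359), with a ratio above 0 on all 5 arrays. Igf2r, the receptor that clears IGF2, had -0.21 ± 1.33 and the adaptor Irs1 -0.66 ± 1.44 (SD, n = 5). Irs2, Igfbpl1 and Adam12 were not among the tested genes.

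The genes nearest in pattern were found for Igfbp7, Igfbp2 and Igf1, the members of highest mean log2 intensity among those above background in both channels on all arrays, by the root mean square difference of the 5 log2 ratios, over 13458 probes of 10780 genes above background in both channels on all arrays. For Igfbp7 they were Adamts12 at 0.154, Extl1 at 0.245 and Fndc10 at 0.250, where the median difference was 1.84. For Igfbp2 they were Tmem198b at 0.370, Lrfn4 at 0.371 and Galnt14 at 0.415, against a median of 2.30. For Igf1 by its brightest probe they were Mrps12 at 0.425, Tyro3 at 0.460 and Ghr at 0.462, against a median of 2.59. The Ghr value is that of probe A_52_P680935, with a mean log2 ratio of 0.69. It is not that of A_51_P499854, the Ghr probe with separate ranges. With 5 arrays many probes can lie this near.

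Marker lists of cell types moved between arrays, and their values are given beside those of the family. The median log2 ratio of the 6 thin limb genes was -2.22 on replicate 1 and between 2.52 and 3.82 elsewhere, with summed intensities of 29224 to 738489 in GFP- and of 164539 to 1251732 in GFP+ cells. That of the 8 principal cell genes was -3.58 on replicate 1 and between 0.76 and 4.69 elsewhere, with sums of 21258 to 697966 in GFP- and 55717 to 752513 in GFP+ cells. Among the tested family probes 6 of 15 had one sign on replicates 2 to 5, against 27.2% of all tested probes. Of these, Igfbp2, Igfbp6 and Igfbp7 had the opposite sign on replicate 1, 3 of 15 against 19.4%, and Igfbp3 and the probes A_52_P257502 of Igfbp4 and A_51_P204153 of Igfbp5 kept it. After centring, 4 of 15 had one sign on replicates 2 to 5, against 26.7%, and 2 of them the opposite sign on replicate 1, Igfbp3 and Igfbp6, against 19.1%. The median of the 8 interstitial fibroblast genes was below 0 on all 5 arrays, from -1.24 on replicate 5 to -0.03 on replicate 1, and after centring it was 0.23 on replicate 1. Their summed intensity ranged from 7399 to 61872 in GFP- and from 5110.5 to 9785 in GFP+ cells. The 8 tested endothelial genes had medians of -0.76 to 0.22 and summed intensities of 8590.1 to 68029.96 in GFP- and of 7505 to 15405 in GFP+ cells. The pericyte and smooth muscle median lay between -0.37 and 0.14, with sums of 49806 to 273049 in GFP- and 35448 to 181928 in GFP+ cells. The leukocyte median lay between -0.52 and 0.14, with sums of 3252 to 40553 in GFP- and 2834 to 9634 in GFP+ cells. The urothelial median lay between -0.92 and 0.30, with sums of 27649 to 253211 in GFP- and 23184 to 253203 in GFP+ cells. The intercalated cell median was -2.61 on replicate 1 and between -0.11 and 2.46 elsewhere, with sums of 7343 to 493920.4 in GFP- and 81222 to 610788 in GFP+ cells. The endothelial receptors Kdr and Tek were above background on 1 array in each channel, and the pericyte receptor Pdgfrb on 0 arrays. Of the tested genes, 6 of 8 endothelial, 6 of 8 fibroblast, 6 of 7 pericyte and smooth muscle, 5 of 7 leukocyte, 6 of 7 urothelial and 4 of 5 intercalated cell genes were above background in both channels on all 5 arrays. Limma called 0 genes of each list. The part of any of these cell types in the ratios of the IGF family was not tested.

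**Figure D4:**
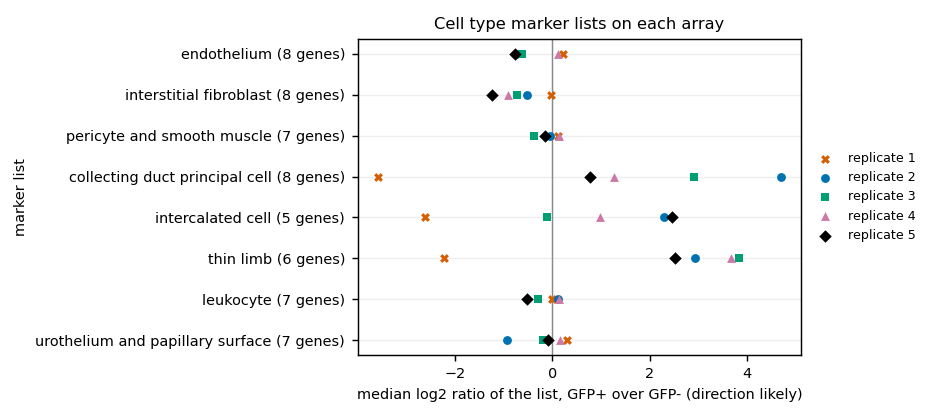
Median log2 ratio of GFP+ over GFP- cells for 8 marker lists, 1 point per array. The thin limb and principal cell lists lie left of 0 on replicate 1 and right of 0 on the other arrays, and the fibroblast list lies left of 0 on all 5 arrays before centring.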

How the data were processed

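Agilent Feature Extraction is the tool named in the submitters' processing notes, with no version. Per the file headers, each deposited array table holds 2 linear intensities, a log10 ratio and a p-value per probe. The deposited log10 ratio equalled that of the second over the first intensity within 0.001 for 78.4% to 89.2% of non-control probes. The deposited series matrix of log10 ratios differed from it by more than 0.001 at 0 to 3 probes per array. The p-value was used for a count only, and no source used here describes its error model. Probe names came from the array, the platform annotation and RefSeq: of 41174 non-control probes, 33480 had 1 symbol, 45 several and 7649 none here.

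The log2 ratio of the deposited intensities was tested against 0 by probe in limma 3.58.1 and R 4.3.3 (two-sided, Benjamini-Hochberg over 29814 probes), a code tested on simulated data. No dye was swapped, so a dye effect is part of each ratio, and the 5 arrays limit the precision. The array pairs both populations: after removal of channel means, its channels correlated at 0.137 to 0.523. Named were all member probes, 4 pathway genes of lowest p and the nearest 3 genes of 3 members. Members and lists were chosen with earlier results of these data known. Earlier work added an offset of 50 and loess, an alternative here.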

Additional observations from a re-analysis of the deposited data

Results flagged for a closer look

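Of 28 sets of 5 array values checked (15 family probes, 9 gene lists and 4 pathway genes), 2 held a value far from the other 4, and by chance about 1 set in 20 would. Replicate 5 lay apart for the Igfbp3 probe A_51_P228472, with a log2 ratio of -3.62 against -0.91 to -0.18 on the others. Replicate 1 lay apart for the median of the thin limb list, with -2.22 against 2.52 to 3.82.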

How the results depend on the processing

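Limma called 0 probes, 0 family probes and 0 pathway genes under every alternative run, which changed the scaling, the source of the ratio, the floor and filter on dim probes, the probes per gene, the marked probes, the pairing or the set of replicates. The lowest adjusted p of a family probe was 0.269, for Igfbp4 without replicate 1. Without replicate 1, 4653 of all probes had an unadjusted p under 0.05, against 1793 with all 5 arrays. With no replicate block, that is with the channels as unpaired groups, limma also called 0, and 911 had an unadjusted p under 0.05. Centring each array on its median lowered all mean log2 ratios by 0.18, and the Igfbp5 probe A_51_P204153 then had 2.15.

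The sign of the mean turned under at least 1 alternative for 8 of the 15 family probes. Among values of family probes under alternatives that kept all replicates, 6 turned and 163 did not. A change of filter, pairing or marked probes, or the use of the brightest probe, leaves a family probe's mean as it was. Many of the 163 values therefore could not turn, and the count does not measure how stable the signs are. The Igf1r probe A_51_P474538 had -0.056 with an offset of 50 and loess, -0.026 after centring, -0.0016 with the offset alone and -0.29 with the floor. Igfbp5 probe A_52_P281702 had -0.21 with the floor, and Igfbp4 had 0.35 as the mean of its probes against -0.53 for the brightest. When 1 replicate was left out, 8 values turned and 67 did not. The ranges were -0.28 to 0.95 and -0.71 to 0.30 for the Igf1r probes A_51_P474538 and A_52_P668647, -0.12 to 1.25 for Igf1 probe A_52_P536434, -0.031 to 1.21 for Igfbp2, -0.73 to 0.015 for Igfbp6 and -0.024 to 0.63 for Igfbp1. Apart from the construction of each alternative, the cause was not tested. Signal near background limits Igf2, the Igfbp5 probe A_52_P281702 and the GFP- values of Igfbp5 probe A_51_P204153 and Igfbp4 probe A_52_P257502. It also limits some GFP- values of Igf1 probe A_51_P147942 and of Igfbp1. The same holds for some values of both channels of the Igf1r probes A_51_P474538, A_52_P668647 and A_52_P634111.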
